A study of Mus musculus with 24 samples.

Results

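The comparison of hippocampus (HIP) with entorhinal cortex (EC) within wild-type (wt) mice used 12 of the 24 RNA-Seq libraries, 6 per region, chosen by the tissue and genotype given in the sample labels. The 6 wt mice were male littermates of Ts65Dn mice, kept on an F1 B6C3B background and aged 5 to 6 months, and each gave 1 HIP and 1 EC library, so that the comparison was made within mice. The wt mice carry no extra chromosome. The other 12 libraries came from 6 male littermates labelled Ts65Dn, with the same pair of regions. Ts65Dn replicate 3 had Mmu16 gene levels near the wt mean in both regions and was kept as labelled. Ts65Dn mice carry a minichromosome that adds a copy of a Mmu16 segment homologous to human chromosome 21 and of a centromeric Mmu17 segment. They served here as a second set of animals.

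The HIP and the EC form a loop. Layer 2 cells of the EC project to the dentate gyrus and CA3, CA1 projects back through the subiculum to the deep layers of the EC, and both regions contribute to object and spatial memory. The HIP is made of the dentate gyrus, with densely packed granule cells and a niche that still produces neurons in the adult, and of the CA fields of pyramidal cells. It borders the lateral ventricle, which holds the choroid plexus, and it is overlain by white matter. The EC is a layered cortex next to perirhinal and piriform cortex, amygdala and claustrum.

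Each library held between 24482366 and 40476492 gene counts in HIP (median 28628982) and between 24904755 and 38299186 in EC (median 28366372). The first principal component took 61.2% of the variance and separated the regions, and no 2 libraries were identical. Both libraries of a mouse deviated together from their region means. The share of counts from mitochondrial genes was 3.81 to 4.598% in HIP and 4.514 to 7.064% in EC. Levels are given as CPM, read counts scaled to a common library size by the TMM method, which corrects library totals for composition. Differences are log2 values, HIP over EC, with their standard error (SE) from edgeR's quasi-likelihood test with the mouse as a block. A gene is called when its Benjamini-Hochberg adjusted p over all genes tested was under 0.05.

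The regions differed in the level of most genes, and most of the differences were small. Of 17196 genes tested, 10541 (61.3%) were called, 5336 (31%) higher in HIP and 5205 (30.3%) higher in EC. At least 2-fold differences were called for 1157 genes (6.73%) in HIP and 721 (4.19%) in EC. At least 4-fold differences were called for 358 and 163 genes, and at least 16-fold differences for 57 and 16, so the long tail lay on the HIP side. The median difference over all genes was 0.0016. When library totals replaced TMM, the median moved to 0.107 and 65.2% of the calls were higher in HIP, against 50.6% with TMM. Protein-coding genes made up 4750 of the HIP calls and 4659 of the EC calls.

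**Figure D1:**
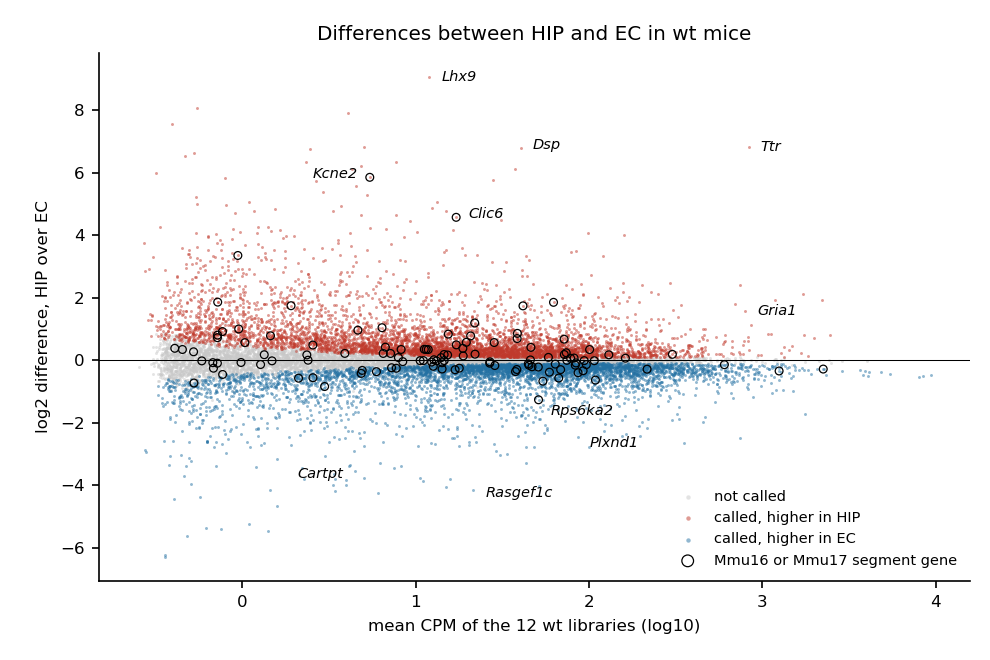
Log2 difference between HIP and EC (y axis) against the log10 mean CPM of the 12 wt libraries (x axis), 1 point per gene tested, coloured by call, with circles around genes of the Mmu16 and Mmu17 segments. The red points reach a log2 difference of 9.07 (Lhx9), and labelled EC genes such as Rasgef1c reach -4.15.

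The HIP libraries were marked by genes of dentate granule cells and of CA pyramidal cells. Prox1, a homeobox factor that specifies and maintains granule cells, lay between 127.7 and 160.5 CPM in HIP (median 142.7) and between 12.23 and 14.68 in EC (median 12.68). The groups were far apart, and the difference was 3.47 ± 0.053 (SE, n = 6 mice, adjusted p = 2.06e-10). Dsp, which encodes the desmosomal protein desmoplakin, lay between 57.14 and 112.6 CPM in HIP (median 77.58) and between 0.4034 and 1.031 in EC (median 0.7718), a fitted fold of 109.8. C1ql2, a secreted protein of mossy fibre synapses, lay between 38.84 and 69.51 CPM in HIP (median 54.34) and between 0.5075 and 1.668 in EC (median 0.8716), with a difference of 5.78 ± 0.21 (adjusted p = 1.53e-08). None of these 3 genes had an EC library that reached a HIP library. Of the 14 dentate genes listed, 12 were higher in HIP, against 31% of all genes, with a median difference of 2.73. Smad3, a transducer of TGF-beta signals, was higher in EC (-0.33 ± 0.071), and Plk5 was not called (0.17 ± 0.098, adjusted p = 0.164), though it was called higher in HIP with library totals (adjusted p = 0.0326) and without mouse 6 (adjusted p = 0.0333). Summed over the list, the level lay between 659.9 and 822.9 CPM in HIP and between 205.6 and 249.1 in EC. In bulk tissue, fewer cells of a type and less RNA per cell cannot be told apart.

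Genes of the CA fields were called in both directions. Of 6 CA1 genes, 4 were higher in HIP and 2 in EC, against 31% and 30.3% of all genes. Fibcd1, a membrane receptor enriched in CA1, lay between 139.3 and 162.5 CPM in HIP (median 156.4) and between 9.661 and 18.3 in EC (median 13.63), a difference of 3.49 ± 0.11 (adjusted p = 7.16e-09). Spink8 lay between 24.75 and 27.79 CPM in HIP (median 25.16) and at or below 1.197 in EC. Both genes were separated without overlap. In contrast, Wfs1, which encodes the endoplasmic reticulum protein wolframin, lay between 120.8 and 185.6 CPM in HIP (median 169.7) and between 165.8 and 276.1 in EC (median 208.3). The ranges overlapped, and the gene was higher in EC in 5 of 6 mice (-0.36 ± 0.079, adjusted p = 0.00274). Mpped1 was also higher in EC (-0.70 ± 0.072). Wfs1 is known to mark layer 2 cells of the EC as well as CA1.

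Of 15 CA2 and CA3 genes, 11 were higher in HIP and 4 in EC, against 31% and 30.3% of all genes. Iyd, an iodotyrosine deiodinase, lay between 7.057 and 10.68 CPM in HIP (median 8.803) and at or below 0.266 in EC, a difference of 5.58 ± 0.26 (adjusted p = 6.6e-08). Homer3, a postsynaptic scaffold protein, lay between 30.35 and 40.82 CPM in HIP (median 32.47) and between 2.284 and 4.023 in EC (median 2.608). The CA2 gene Rgs14, a regulator of G protein signalling, rose by a fold of 2.062 (1.04 ± 0.091). The groups did not overlap for any of these 3 genes. Pcp4, a calmodulin-binding protein that marks CA2 in the HIP and deep layers in cortex, was higher in EC, with 38.85 to 87.87 CPM in HIP and 63.33 to 90.77 in EC (-0.56 ± 0.12, adjusted p = 0.00265). Coch, an extracellular matrix protein, went furthest against the list, with 4.581 to 10.95 CPM in HIP and 38.31 to 61.71 in EC, a log2 difference of -2.90 ± 0.14.

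The EC libraries were marked by genes of the neocortical layers. Cux2, a homeobox factor of upper layer neurons, lay between 14.89 and 29.72 CPM in HIP (median 21.98) and between 75.58 and 105 in EC (median 92.46), a difference of -2.15 ± 0.14 (adjusted p = 6.56e-07). Rorb, a nuclear receptor best known from layer 4, was 3.323-fold higher in EC (-1.73 ± 0.062), and Cux1, a paralogue of Cux2, was 2.384-fold higher. Plxnd1, a semaphorin receptor, lay between 19.11 and 41.49 CPM in HIP (median 25.18) and between 100.8 and 179.5 in EC (median 147.5). These groups did not overlap. Of 12 upper layer genes, 10 were higher in EC, against 30.3% of all genes, with a median of -1.35. The exception was Mdga1, a cell adhesion protein that interacts with neuroligins, at 71.05 to 108.2 CPM in HIP and 25 to 31.27 in EC (1.62 ± 0.11). Calb1, a calcium buffer shared by dentate granule cells and cortical layer 2, was higher in EC (-0.85 ± 0.041).

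Of 16 deep layer genes, 11 were higher in EC, against 30.3% of all genes, 2 were higher in HIP and 3 were not called. Tbr1, a T-box factor of layer 6 neurons, lay between 43.23 and 68.33 CPM in HIP (median 56.14) and between 150 and 196.1 in EC (median 163.7). Foxp2, a forkhead factor of corticothalamic neurons, lay between 1.747 and 5.655 CPM in HIP and between 6.682 and 20.8 in EC. Ccn2, a matrix-associated protein of layer 6b, was 4.602-fold higher in EC (-2.20 ± 0.12, adjusted p = 1.7e-07). All 3 were separated between the regions. Fezf2, the selector gene of subcerebral projection neurons, was not called (-0.15 ± 0.12, adjusted p = 0.291). The 2 members higher in HIP were Bcl11b (Ctip2), at 173 to 207.1 CPM against 43.03 to 69.66, and Etv1, at 81.88 to 129 CPM against 68.48 to 108.4. Bcl11b is known from dentate granule and CA1 cells as well as from layer 5.

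**Figure D2:**
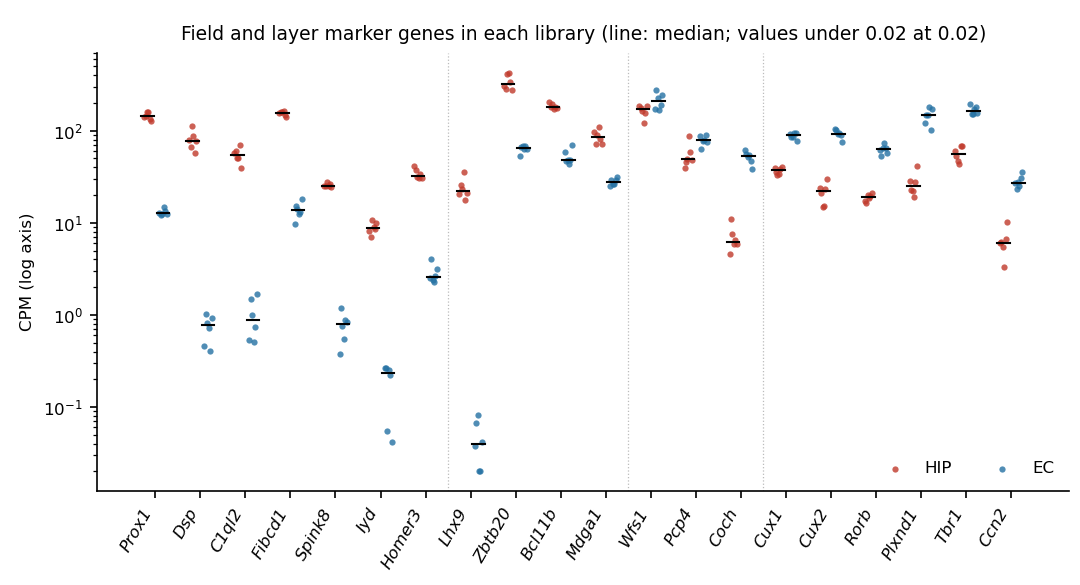
CPM on a log axis (y axis) of 20 genes (x axis) in the 6 HIP and 6 EC libraries of wt mice, with 1 point per library and a line at the median. From left to right stand dentate and CA genes higher in HIP, transcription factors and Mdga1 higher in HIP, field genes higher in EC (Wfs1, Pcp4, Coch) and layer genes higher in EC.

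Transcription factors of forebrain patterning gave the most extreme gene of the comparison. Lhx9, a LIM homeobox factor on chromosome 1, lay between 17.73 and 35.71 CPM in HIP (median 22.12) and between 0 and 0.08186 in EC (median 0.03979). The 6 EC libraries together held 7 reads of the gene against 4508 in HIP. The difference was 9.07 ± 0.19 (adjusted p = 7.86e-10). Zbtb20, a zinc finger repressor needed for CA1 identity, lay between 278.1 and 426.6 CPM in HIP and between 52.96 and 68.08 in EC (2.40 ± 0.086). Nr3c2, the mineralocorticoid receptor, was 5.573-fold higher in HIP, and Neurod6, a bHLH factor of pyramidal neurons, 3.609-fold. Otx1, a homeobox factor of deep cortical layers, was 2.173-fold higher in EC. Of 32 such factors tested, 17 were higher in HIP and 12 in EC, against 31% and 30.3% of all genes. Among the HIP genes stood Otx2 (1.755 to 17.28 CPM in HIP, 0.1088 to 0.4169 in EC), which in the adult forebrain is a gene of the choroid plexus.

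Genes of neurogenesis and immature neurons were called in both directions. Eomes (Tbr2), a factor of intermediate progenitors, lay between 0.4361 and 3.146 CPM in HIP and between 0 and 0.03788 in EC, with 305 reads in HIP and 4 in EC (5.82 ± 0.34). Igfbpl1, a gene of neuronal progenitors and neuroblasts, lay between 0.7379 and 4.886 CPM in HIP and at or below 0.1364 in EC. The regions did not overlap for either gene. Dcx, a microtubule protein of migrating neuroblasts, was higher in EC, at 12.25 to 20.76 CPM in HIP and 23.56 to 39.81 in EC (-0.92 ± 0.051, adjusted p = 1.96e-07). The other members higher in EC were Tubb3, a neuronal tubulin, at 146.2 to 237 CPM in HIP and 316 to 406.3 in EC, and Stmn1, a regulator of microtubules, at 43.97 to 57.43 CPM in HIP and 136.5 to 152 in EC. Of the 14 genes of this list, 9 were higher in HIP and 3 in EC, against 31% and 30.3% of all genes, and 2 were not called. The summed level, in which these abundant genes weigh most, was higher in EC in all 6 mice (316.8 to 397.1 CPM in HIP, 557.3 to 661.2 in EC). Piriform cortex, which adjoins the EC, is known to hold Dcx-positive cells in the adult.

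Of 15 general neuronal genes, 9 were higher in EC, against 30.3% of all genes, 1 was higher in HIP and 5 were not called, with a median of -0.23. The HIP count was 4 with library totals in place of TMM, and 2 without mouse 1, without mouse 3 and without mouse 5. Snap25, a SNARE protein of the presynapse, lay between 2306 and 2698 CPM in HIP and between 2833 and 4028 in EC. The neuronal nuclear gene Rbfox3 (NeuN) was not called (0.02 ± 0.037, adjusted p = 0.638), but with library totals it was called higher in HIP (0.13, adjusted p = 0.0122). Gad1 and Gad2, the enzymes that make GABA, were not called either, with differences of -0.04 ± 0.056 and -0.05 ± 0.038 whose signs turned when library totals replaced TMM. Of 23 interneuron genes, 10 were higher in EC and 6 in HIP, against 30.3% and 31% of all genes. Among those higher in HIP was Prox1, which is also on the dentate list. Vip, the peptide of a class of disinhibitory interneurons, lay between 11.14 and 29.72 CPM in HIP (median 19.15) and between 55.53 and 68.76 in EC (median 61.86).

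Receptors for glutamate and GABA had subunits higher in either region. Gria1, a subunit of AMPA receptors, lay between 1122 and 1255 CPM in HIP (median 1193) and between 372.2 and 446.7 in EC (median 396), a difference of 1.58 ± 0.046 (adjusted p = 4.33e-09). Gria2, the subunit that makes AMPA receptors impermeable to calcium, was 1.52-fold higher in HIP. Cacng3, an auxiliary AMPA receptor subunit, was 2.454-fold higher in EC. In this list of 15 AMPA and NMDA receptor genes tested, 5 were higher in HIP and 8 in EC, against 31% and 30.3% of all genes. The summed level of the 16 listed genes, 1 of them not tested, was nevertheless higher in HIP in 6 of 6 mice (4236 to 4864 CPM against 3091 to 3637). The median difference was -0.12. Among kainate receptor subunits, Grik4, known from CA3 and the dentate gyrus, was higher in HIP (1.24 ± 0.073), and Grik3 was higher in EC (-0.99 ± 0.058).

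All 13 GABA-A receptor genes tested were called, against 61.3% of all genes, 9 of them higher in EC and 4 in HIP. With GC content and length trends removed, 2 were higher in HIP, and Gabrb1 was among those no longer called (adjusted p = 0.0549). Gabra5, the subunit of extrasynaptic receptors in hippocampal pyramidal cells, lay between 219.9 and 247.5 CPM in HIP (median 231.7) and between 49.7 and 83.54 in EC (median 64.63). Gabra3 showed the opposite, with 52.04 to 94.86 CPM in HIP (median 74.97) and 296 to 334.9 in EC (median 313.1), a difference of -2.10 ± 0.094 (adjusted p = 5.26e-08). Neither gene had overlapping regions. Gabrd, the delta subunit of tonic inhibition, was 2.763-fold higher in EC. Summed over the 15 listed genes, 2 of them not tested, the level was higher in EC in every mouse (2434 to 2666 CPM in HIP, 2629 to 2975 in EC).

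Monoamine and acetylcholine receptors also divided by gene. Drd5, a dopamine receptor of the D1 class, lay between 5.924 and 11.04 CPM in HIP (median 7.37) and between 0.133 and 0.7921 in EC (median 0.493), a difference of 4.08 ± 0.19 (adjusted p = 5.82e-08). Drd1 went the other way, at 6.659 to 8.084 CPM in HIP and 13.9 to 21.51 in EC. The groups were apart for both genes. The summed level of the 13 listed dopamine and noradrenaline receptor genes, 10 of them tested, was higher in EC in 6 of 6 mice. Adra1b, an adrenergic receptor, was 6.363-fold higher in EC. Among serotonin receptors, Htr4 (15.31-fold) and Htr5b (7.115-fold) were higher in HIP, and Htr2a (2.6-fold), a receptor of cortical layer 5 cells, was higher in EC. Of 13 cholinergic genes, 7 were higher in HIP and 4 in EC, against 31% and 30.3% of all genes. The nicotinic subunit Chrna7 (0.93 ± 0.057) was higher in HIP. The nicotinic subunit Chrna4 (-1.08 ± 0.10) and the muscarinic receptor Chrm2 (-1.18 ± 0.12) were higher in EC.

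Neuropeptide genes were mostly higher in EC. Of 21 peptide and granin genes tested, 16 were higher in EC and 1 in HIP, against 30.3% and 31% of all genes. Another 4 were not called, and the median of the list was -0.86. Cartpt, which encodes the CART peptide, lay between 0.4763 and 1.171 CPM in HIP (median 0.681) and between 7.013 and 10.04 in EC (median 8.018), a difference of -3.53 ± 0.16 (adjusted p = 6.46e-08). Adcyap1, which encodes the peptide PACAP, was 4.146-fold higher in EC. Without mouse 6, 2 genes of this list were higher in HIP. The 1 gene higher in HIP over all 6 mice was Nts, neurotensin, at 1.439 to 13.32 CPM in HIP and 0.3988 to 1.959 in EC. Its regions overlapped, but Nts was higher in HIP in 6 of 6 mice. Among 28 peptide receptors, 13 were higher in EC and 8 in HIP, against 30.3% and 31% of all genes. Oprk1, the kappa opioid receptor, lay between 1.111 and 1.778 CPM in HIP and between 14.57 and 30.18 in EC. The cholecystokinin receptor Cckbr was 6.756-fold higher in EC, whereas Npy2r, a presynaptic receptor for neuropeptide Y, was 7.429-fold higher in HIP.

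Of 7 genes of neurotrophins and their receptors, 5 were higher in HIP, against 31% of all genes, and 1 in EC. The summed level of the 9 listed genes was nevertheless higher in EC in every mouse (1881 to 2013 CPM in HIP, 2072 to 2227 in EC). Ntf3, neurotrophin 3, lay between 6.641 and 9.578 CPM in HIP (median 8.905) and between 1.357 and 2.892 in EC (median 2.054). Bdnf was 1.427-fold higher in HIP with overlapping ranges, and Ntrk2, which encodes its receptor TrkB, was 1.496-fold higher in EC. Ntrk3, which encodes TrkC, the receptor for neurotrophin 3, was 1.374-fold higher in HIP, on the same side as Ntf3.

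Genes induced by neuronal activity were mostly higher in EC. Of 19 immediate early genes, 2 (Arc and Btg2) were not called. Higher in EC were 13 and in HIP 4, against 30.3% and 31% of all genes, and the median of the 19 genes was -0.74. The 250 bases upstream of the RefSeq start are given for 3 of them, 2 higher in EC and 1 higher in HIP, since the cAMP response element lies in the promoters of many genes of this class. Capitals mark the core TGACG of that element on either strand and the CArG box, the site of serum response factor.
Fos (GRCm38.p6 chr12:85473640-85473889, plus strand): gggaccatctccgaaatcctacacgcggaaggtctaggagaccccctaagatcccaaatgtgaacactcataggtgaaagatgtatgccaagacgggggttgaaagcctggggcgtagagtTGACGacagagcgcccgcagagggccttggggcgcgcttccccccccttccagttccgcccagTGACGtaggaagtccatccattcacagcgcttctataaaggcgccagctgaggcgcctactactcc
Fosb (GRCm38.p6 chr7:19310046-19310295, minus strand): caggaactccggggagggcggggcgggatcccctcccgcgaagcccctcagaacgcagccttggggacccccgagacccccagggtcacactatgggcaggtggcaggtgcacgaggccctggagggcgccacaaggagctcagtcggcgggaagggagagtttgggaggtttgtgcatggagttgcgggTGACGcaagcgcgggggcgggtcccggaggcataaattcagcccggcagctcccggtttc
Dusp5 (GRCm38.p6 chr19:53528895-53529144, plus strand): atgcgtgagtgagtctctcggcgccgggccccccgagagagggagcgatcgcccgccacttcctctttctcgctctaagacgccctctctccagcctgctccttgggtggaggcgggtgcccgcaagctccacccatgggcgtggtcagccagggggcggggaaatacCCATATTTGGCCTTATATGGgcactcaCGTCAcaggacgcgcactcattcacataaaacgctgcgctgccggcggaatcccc
The core was found in 11 of the 14 listed genes with a RefSeq promoter and in 26.1% of all 11262 protein-coding promoters of the same length. It stood in 8 of the 9 promoters of genes higher in EC. Of the 4 genes higher in HIP, only Dusp5 and Nr4a3 held it. The full element TGACGTCA, which contains the core, was found in 2 of the 14, against 2.69% of all promoters. A match describes the letters of this window and shows no binding.

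Fos, a subunit of the AP-1 factor, lay between 3.47 and 18.95 CPM in HIP (median 5.855) and between 9.342 and 40.35 in EC (median 20.4). The ranges overlapped, yet within each of the 6 mice the level was higher in EC (-1.43 ± 0.16, adjusted p = 2.35e-05). Egr2, a zinc finger factor, lay between 0.6609 and 3.891 CPM in HIP and between 3.984 and 16.55 in EC (-2.25 ± 0.17), with the highest level of both regions in mouse 6. Fosb, Npas4, Egr1 and the phosphatase gene Dusp1 were 2.428-, 2.237-, 2.297- and 2.872-fold higher in EC. Arc was not called (-0.04 ± 0.19, adjusted p = 0.859), and its sign turned with library totals. Nr4a3, an orphan nuclear receptor, lay between 96.31 and 130 CPM in HIP (median 104.3) and between 23.5 and 61.7 in EC (median 30.87), without overlap, and Jun was 1.956-fold higher in HIP. Dusp5, a phosphatase of ERK, was higher in HIP in 6 of 6 mice (0.88 ± 0.093). Without mouse 6, 13 genes of this list were still higher in EC and 3 in HIP.

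Of 37 voltage-gated potassium channel genes, 22 were higher in EC, against 30.3% of all genes, and 10 in HIP, against 31%. Kcnh5, a channel of the ether-a-go-go family, was 3.704-fold higher in EC, and Kcng2, a modifying subunit, was 5.661-fold higher in HIP. The calcium channel list was taken by gene name and includes Cacng3, counted above among AMPA receptor genes. Of its 23 tested genes, 8 were higher in HIP and 11 in EC, against 31% and 30.3% of all genes. At an adjusted p under 0.01 the HIP count was 4. Cacna1h, which encodes a T-type channel, lay between 76.97 and 107.6 CPM in HIP and between 26.39 and 34.52 in EC. Of 12 sodium channel genes, 3 were higher in HIP and 4 in EC, shares near those of all genes (31% and 30.3%).

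Guidance and adhesion genes were called in both directions. Epha7, a receptor for ephrins, lay between 224.9 and 293.5 CPM in HIP (median 256.6) and between 56.75 and 96.84 in EC (median 67.04). Its family had 11 of 20 genes higher in HIP and 6 in EC, against 31% and 30.3% of all genes. Efna5, an ephrin, lay between 4.208 and 6.977 CPM in HIP and between 25.35 and 43.25 in EC, a difference of -2.70 ± 0.16 (adjusted p = 2.35e-07). The groups were separate for both receptor and ligand. Sema3a, a secreted semaphorin, was 8.02-fold higher in EC, while Nrp1, the receptor to which it binds, was 3.912-fold higher in HIP. The membrane-bound Sema5a was 4.072-fold higher in HIP. Of 31 semaphorin and plexin genes, 12 were higher in HIP and 13 in EC, against 31% and 30.3% of all genes.

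Among cadherin genes named Cdh, 7 of 20 were higher in HIP and 10 in EC, against 31% and 30.3% of all genes. Cdh13, which encodes a cadherin anchored by a lipid, was 3.68-fold higher in EC and Cdh9, known from synapses of the dentate gyrus with CA3, 3.055-fold higher in HIP. The clustered protocadherins, whose members within a cluster share constant exons, had 27 of 54 higher in EC and 6 in HIP, against 30.3% and 31% of all genes, all of them under 2-fold. With library totals the HIP count was 11, and against 1.5-fold 1 gene was higher in EC and 0 in HIP. In the Wnt list, 9 of 30 were higher in HIP and 12 in EC, shares near those of all genes. Wnt3 was 3.54-fold higher in HIP and Wnt4 3.286-fold higher in EC. Of 16 retinoic acid genes, 5 were higher in HIP and 6 in EC, shares near those of all genes (31% and 30.3%).

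**Figure D3:**
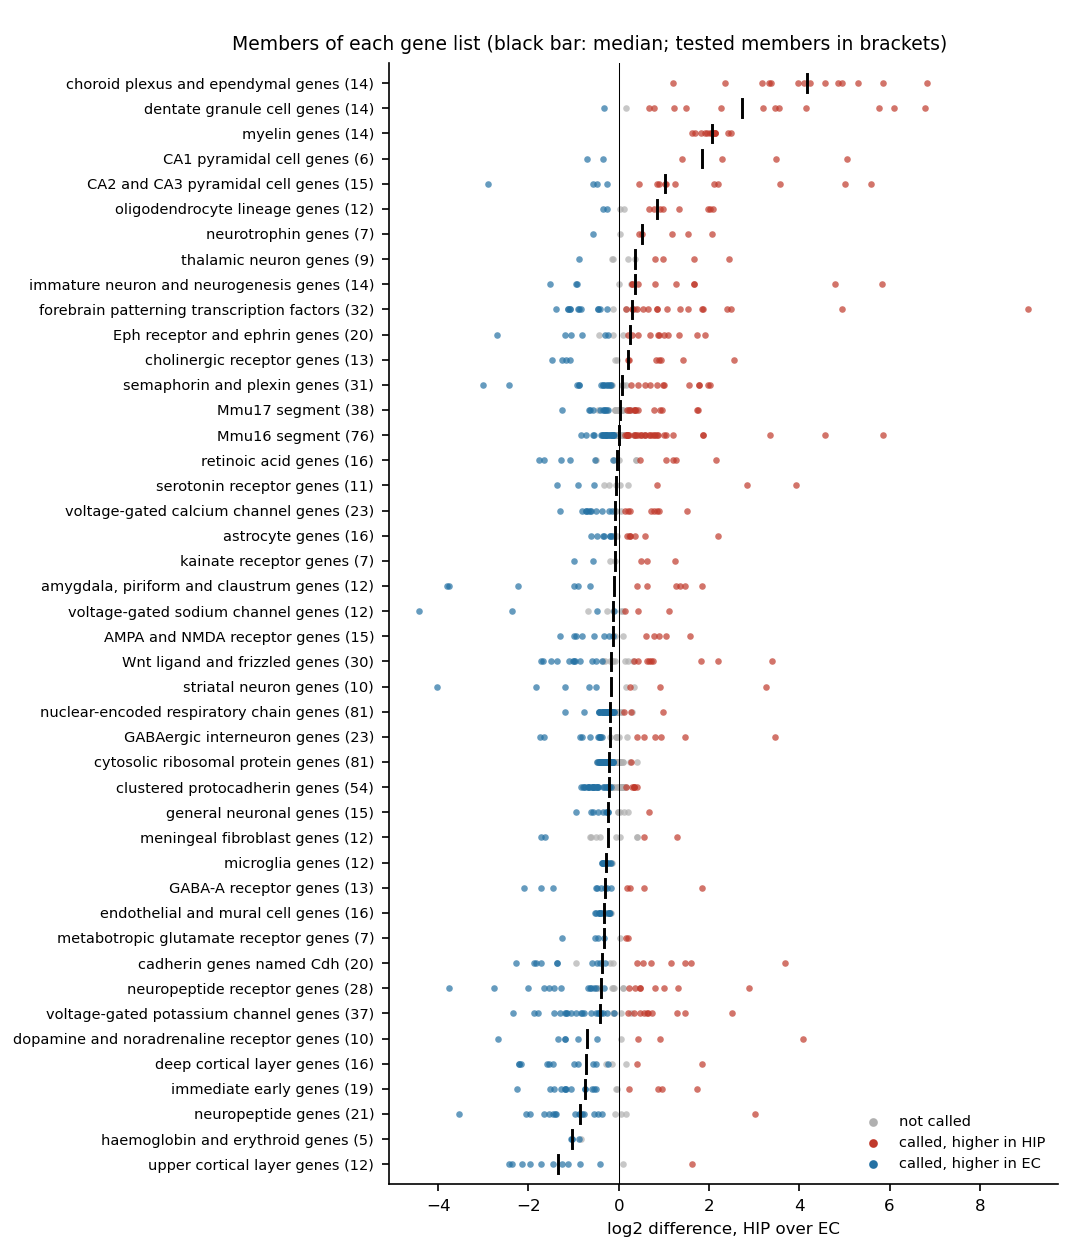
Log2 difference between HIP and EC (x axis) of each tested member of 44 sets (y axis, 42 gene lists and both segments, number tested in brackets), coloured by call, with a black bar at the median, sorted by median. Choroid plexus, dentate and myelin genes stand at the top with medians of 4.18, 2.73 and 2.06, and upper layer genes at the bottom with -1.35.

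Glial genes differed most for myelin. All 14 myelin genes were called at least 2-fold higher in HIP, against 6.73% of all genes, and their median was 2.06. None of them overlapped between regions, while 17.7% of all genes were separated with HIP higher. Mbp, myelin basic protein, lay between 2715 and 3774 CPM in HIP (median 3541) and between 635.3 and 1235 in EC (median 969.4), a difference of 1.92 ± 0.12 (adjusted p = 3.27e-07). Cnp, an enzyme of myelin, was 3.069-fold higher. Of 12 genes of the oligodendrocyte lineage, 8 were higher in HIP, against 31% of all genes. The precursor genes Pdgfra and Cspg4 were the 2 higher in EC. Gfap, the intermediate filament of astrocytes, lay between 318.1 and 428.6 CPM in HIP and between 54.88 and 104 in EC. Of the 16 astrocyte genes, Gfap included, 6 were higher in HIP and 7 in EC, against 31% and 30.3% of all genes. Among those higher in EC was Aldh1l1 (-0.62 ± 0.064), and the EC count was 4 with library totals and also at an adjusted p under 0.01. The share of white matter taken with each region was not tested.

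Microglial and vascular genes were slightly higher in EC. Of 12 microglial genes 11 were higher in EC, against 30.3% of all genes, with a median of -0.29. Of 16 endothelial and mural genes 13 were higher in EC, with a median of -0.32. With library totals in place of TMM, and likewise without the mouse as a block, 7 of the microglial genes were higher in EC. Haemoglobin and erythroid genes lay on the same side as the vascular list, with 4 of 5 higher in EC, against 30.3% of all genes. Their summed level was 100.1 to 152.4 CPM in HIP and 138.7 to 544 in EC. Hbb-bs, a beta globin with a near-identical neighbour among which reads may be split, was 2.067-fold higher in EC. The part of residual blood in the vascular and microglial differences was not tested.

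Genes for protein synthesis and respiration were shifted by little, and mostly to one side. Of 81 nuclear-encoded respiratory chain genes, 56 were higher in EC and 3 in HIP, against 30.3% and 31% of all genes. Their median was -0.20. Of 81 cytosolic ribosomal protein genes, 49 were higher in EC and 1 in HIP, with a median of -0.22. With library totals in place of TMM, 35 and 27 were higher in EC and 6 and 4 in HIP. The mitochondrial share given above was higher in EC as well.

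Marker genes of tissue next to the dissected regions were measured as well. All 14 choroid plexus and ependymal genes were higher in HIP, against 31% of all genes. But their level varied more between HIP libraries than that of any other list shown in the plot of summed levels. Ttr, transthyretin, which the choroid plexus secretes, lay between 56.84 and 4563 CPM in HIP (median 1185) and between 3.657 and 39.6 in EC (median 7.163), a difference of 6.84 ± 0.86 (adjusted p = 5.71e-05). The summed level was 5064 CPM in HIP of mouse 2 and 120.1 in HIP of mouse 5, and between 19.62 and 61.62 in EC. Without mouse 2, all 14 were still higher in HIP, and without mouse 6, 13 were. Folr1, a folate receptor of the choroid plexus epithelium, had the same pattern, with 1.011 to 32.15 CPM in HIP and at most 0.4546 in EC.

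Striatal neuron genes were mixed. Of the 10 striatal genes tested, 5 were higher in EC and 3 in HIP, against 30.3% and 31% of all genes. The summed level of all 12 listed genes was 169.1 to 199 CPM in HIP and 277.7 to 298.1 in EC. Six3 was higher in HIP (3.27 ± 0.56). In Ts65Dn mice its difference was 0.63, and the interaction with genotype did not pass (adjusted p = 0.9998 in edgeR). Of 12 genes of amygdala, piriform cortex and claustrum, 6 were higher in HIP and 6 in EC, against 31% and 30.3% of all genes. Oprk1 and Otof (13.96-fold) were highest for EC. Of 9 thalamic genes, 4 were higher in HIP and 1 in EC, against 31% and 30.3% of all genes. At an adjusted p under 0.01, 2 were higher in HIP, and with no filter on low counts 7. The sum of the 10 listed genes was 382.1 CPM in HIP of mouse 4, 231.7 to 276.2 in the other HIP libraries and 201.5 to 250.8 in EC. In HIP of the same mouse Prkcd, a protein kinase C, was at 68.5 CPM and Calb2, calretinin, at 76.23, both above the other HIP libraries. Without mouse 4 the counts were again 4 and 1. Meningeal fibroblast genes were called for 2 of 12 in each direction, against 31% (HIP) and 30.3% (EC) of all genes. The HIP count was 1 without mouse 1, 3, 4 or 5, and the EC count was 4 without mouse 1 and 5 without mouse 3. How much of any difference came from neighbouring tissue was not tested.

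**Figure D4:**
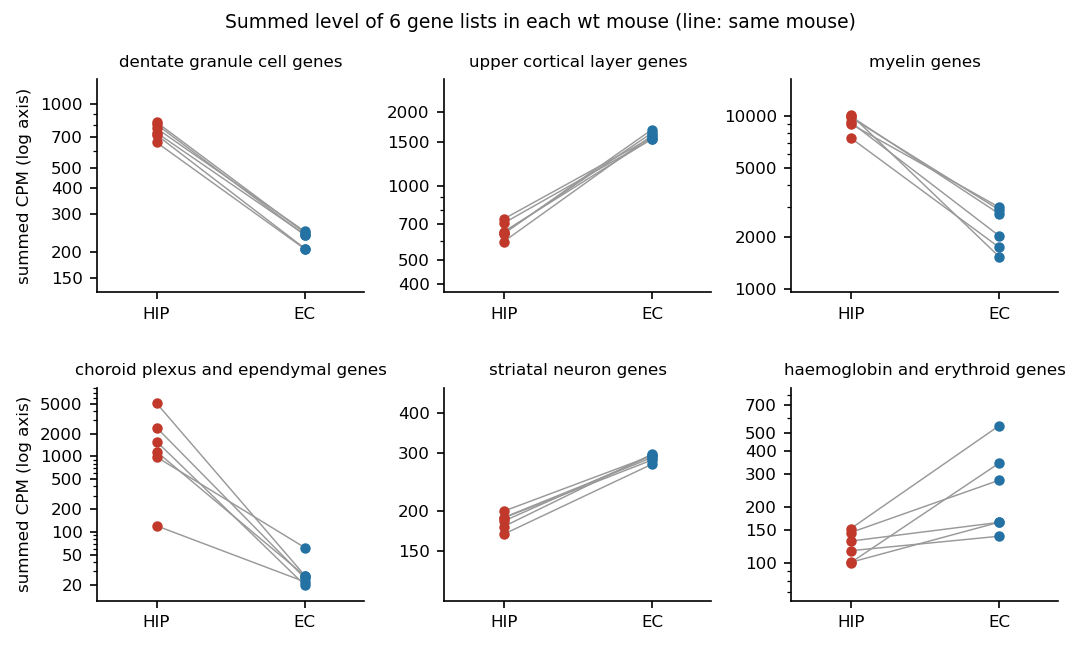
Summed CPM on a log axis (y axis) of 6 gene lists in HIP and EC (x axis), with 1 point per library and a line joining both libraries of a mouse. Dentate, upper layer, myelin and striatal sums are apart between regions, and the myelin sum spreads from 1545 to 2976 among the EC libraries. The choroid plexus sum spreads from 120.1 to 5064 among the HIP libraries and the haemoglobin sum from 138.7 to 544 among the EC libraries.

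Among all genes, those named by size were taken only from called genes whose regions did not overlap. The protein-coding ones with the largest differences included, on the HIP side, Lct (lactase, also on the dentate list, 6.11), Pla2g2f (a secreted phospholipase, 5.74) and Krt2 (a keratin, 5.40). On the EC side they included genes best known from muscle, Myl4 (a myosin light chain, 10.93-fold) and Tnnc1 (troponin C, 10.12-fold), as well as Rasgef1c (17.77-fold), Dkkl1 (16.64-fold), Tgm3 (a transglutaminase, 15.92-fold) and Cd6 (a surface protein of T cells, 17.9-fold). Rasgef1c lay between 1.071 and 4.521 CPM in HIP and between 38.49 and 42.56 in EC. Gm765 had the largest EC difference among protein-coding genes named by size (-4.25 ± 0.36), but it spread from 2.877 to 26.59 CPM among the EC libraries. Of 2796 tested genes not annotated as protein coding, a class that takes in T cell receptor segments, 586 were higher in HIP and 546 in EC, against 31% and 30.3% of all genes. Gm26644 lay between 6.91 and 9.3 CPM in HIP and was at 0 in 5 EC libraries. Prox1os, antisense to the start of Prox1, was 12.1-fold higher in HIP and Trbc2, a T cell receptor segment, 15.8-fold higher in EC. Since the strand setting of the read counting is not given in the sources used here, Prox1os and Prox1 may share reads.

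The segments that are triplicated in Ts65Dn mice are present in the normal copy number in these wt mice, and their genes are described here at that copy number. Of the 94 listed genes of the Mmu16 segment (GRCm38 chr16:84717576-97962622), 76 were tested and 18 were too low. Of these, 30 were higher in HIP, 24 in EC and 22 were not called, against 31% and 30.3% of all genes, and the median was 0.0075. The summed level of the 94 listed genes, in which abundant genes weigh most, was higher in EC in every mouse (6476 to 6604 CPM in HIP, 6843 to 7352 in EC). Of the 51 listed genes of the Mmu17 segment (chr17:3076578-9167836), 38 were tested, with 12 higher in HIP, 10 in EC and 16 not called, and a median of 0.036. Outside the segments, 5293 of 17067 tested genes were higher in HIP and 5171 in EC. Another 15 tested genes lie within the spans but are not on the study's list. At least 2-fold differences were called for 8 Mmu16 genes, all higher in HIP, and for 3 Mmu17 genes, 2 higher in HIP and 1 in EC. Of all genes, 6.73% were called at least 2-fold higher in HIP and 4.19% in EC.

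The largest Mmu16 differences were of genes known from the choroid plexus. Kcne2, a potassium channel subunit of its epithelium, lay between 0.3272 and 26.22 CPM in HIP (median 8.142) and between 0 and 0.7921 in EC (median 0.07881). The lowest HIP library, of mouse 5, was below the highest EC library, of mouse 6, and the difference was 5.85 ± 0.52 (adjusted p = 4.9e-06). Clic6, an intracellular chloride channel protein, lay between 7.139 and 79.87 CPM in HIP and between 0.9063 and 2.126 in EC. Both are members of the choroid plexus list, and as for its sum mouse 2 was the highest and mouse 5 the lowest in HIP. The part of choroid plexus tissue in these differences was not tested. In contrast, B3galt5, a galactosyltransferase, was even across libraries, at 87.08 to 109.3 CPM in HIP (median 98.28) and 23.64 to 31.75 in EC (median 26.66), a difference of 1.86 ± 0.053 (adjusted p = 3.53e-09). Sh3bgr, Ripk4 and the metalloproteinase gene Adamts1 were also higher in HIP, by 10.23-, 3.637- and 2.291-fold. Ripk4 lay near the detection limit, at or below 2.006 CPM in every library.

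The oligodendrocyte factors Olig1 and Olig2, both in the Mmu16 segment, were higher in HIP by 0.68 ± 0.044 and 0.78 ± 0.060, beside a myelin list with a median of 2.06. Kcnj6, which encodes the potassium channel subunit GIRK2, lay between 41.47 and 50.5 CPM in HIP (median 48.8) and between 26.13 and 33.13 in EC (median 28.77). Some other genes of the segment were slightly higher in EC. App, the amyloid precursor protein, lay between 1984 and 2085 CPM in HIP (median 2024) and between 2322 and 2607 in EC (median 2467), a difference of -0.28 ± 0.037 (adjusted p = 9.02e-05). Sod1, superoxide dismutase, was 1.258-fold, Rcan1, an inhibitor of calcineurin, 1.299-fold and the kinase gene Dyrk1a 1.099-fold higher in EC. For each of these 4 genes every EC library was above every HIP library. With library totals in place of TMM, Dyrk1a was no longer called (-0.03, adjusted p = 0.44), and 11 Mmu16 genes were higher in EC in place of 24. Bace2, a beta-secretase, had the largest EC difference among Mmu16 genes with a mean of at least 1 CPM (-0.84 ± 0.15), followed by Pcp4, Adamts5 (-0.55 ± 0.18) and Ets2 (-0.39 ± 0.043). Adamts5 lost its call with library totals (adjusted p = 0.0534) and without mouse 1, 3, 4 or 5 (adjusted p = 0.0548 to 0.0649).

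In the Mmu17 segment, Rps6ka2, a ribosomal S6 kinase, had the largest difference towards EC, at 26.47 to 33.75 CPM in HIP (median 29.87) and 58.24 to 83.03 in EC (median 74), a log2 difference of -1.26 ± 0.055 (adjusted p = 4.58e-08). Prr18, a gene expressed in oligodendrocytes, lay between 50.11 and 74.18 CPM in HIP and between 13.73 and 25.75 in EC, a fold of 3.346. The groups did not overlap for either gene. Fndc1 and the non-coding 4930506C21Rik were 1.954- and 3.359-fold higher in HIP. Tiam2, an activator of Rac, and Synj2, a phosphatase of synaptic lipids, were 1.586- and 1.548-fold higher in EC. Of the named genes of both segments, E430024P14Rik, 1700010I14Rik, 4930506C21Rik, Sh3bgr, Ripk4 and Adamts5 lay at or below 3.684 CPM in every library.

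**Figure D5:**
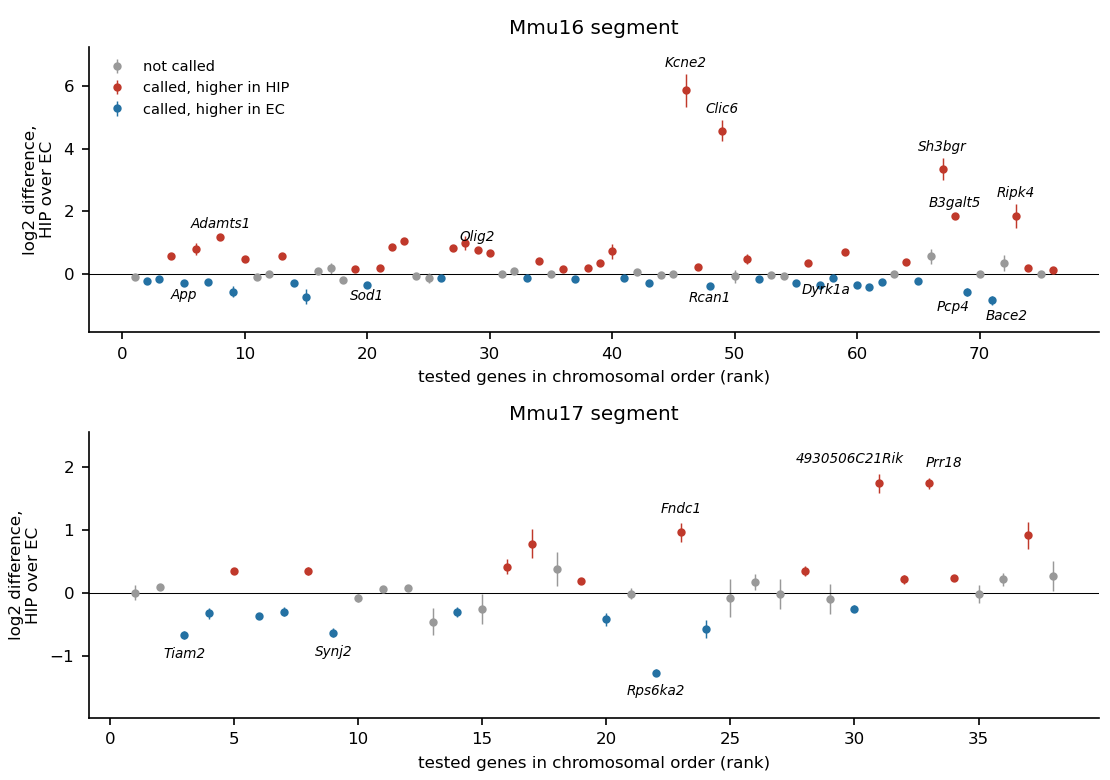
Log2 difference between HIP and EC (y axis, bars give 1 SE) of the tested genes of the Mmu16 segment (top, 76 genes) and the Mmu17 segment (bottom, 38 genes) by rank in chromosomal order (x axis), coloured by call. Most genes lie near 0, with Kcne2 (5.85) and Clic6 (4.57) far above the rest.

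The Ts65Dn mice gave the same comparison in animals that share no library with the wt mice. There, 9055 of 17314 genes tested (52.3%) were called, 4612 (26.6%) higher in HIP and 4443 (25.7%) higher in EC. Of the wt HIP calls tested in Ts65Dn mice, 4147 of 5279 were called in the same direction and 1 in the opposite one, which is 78.6% of the wt calls and 89.9% of the Ts65Dn calls. Of the wt EC calls, 4043 of 5181 were, and 2 were opposite, which is 78% and 91%. For wt calls of at least 2-fold, 1057 of 1110 (95.2%) and 686 of 705 (97.3%) were called in the same direction. Prox1, Fibcd1, Cux2 and Gabra3 differed by 3.36, 3.35, -2.06 and -2.16 in Ts65Dn mice. Eomes and Kcne2 were too low to be tested there. The Mmu16 genes with at least 5 CPM in both regions of wt mice stood at a median of 1.44 to 1.52 times the wt mean in 5 of the Ts65Dn mice in either region, and at 1.02 (HIP) and 1.01 (EC) in Ts65Dn replicate 3. The genotype label of that mouse is in doubt, and the counts above include it. Without it, 3877 and 3702 of the wt calls were called in the same direction.

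A difference between regions that depended on genotype was not detected. The interaction of region and genotype in edgeR gave 0 of 18109 genes with an adjusted p under 0.05 and 742 (4.1%) with an unadjusted p under 0.05. Without Ts65Dn replicate 3 there were 0 and 1176 (6.45%). With no filter on low counts, 37 of 36766 genes passed. Simulated counts for this test were drawn without a mouse effect and without a region difference shared by both genotypes. In them, 138 of 200 changed genes were recovered, 63 of the 1.5-fold and 75 of the 2-fold changes. Recovery was thus incomplete at both sizes with this number of mice, and it may differ in the data.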

How the data were processed

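RNA was extracted from HIP and EC of male mice and single-end reads of 50 bases were aligned with Hisat2 to GRCm38 (Ensembl release 99) and counted per gene with HTSeq-count by the authors. The deposited table holds raw counts for 55385 genes in 24 libraries, with no normalisation. The labels describe a poly(A) kit and the methods also name a total RNA kit, and the strand setting of the counting is not given in the sources used here. The submitters' processing notes also name bcl2fastq 2.17.1.14 and DESeq2. No row lacked a gene name, and 55144 identifiers (99.6%) were matched to GENCODE vM21 (GRCm38).

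The 6 wt_HIP and 6 wt_EC libraries were compared in R 4.3.3 with edgeR 4.0.16 (TMM, filterByExpr by region, quasi-likelihood test, Benjamini-Hochberg adjustment) with the mouse as a block, because the labels give both libraries of a mouse the same animal number. The deviations of both libraries of a mouse from their region means were correlated at 0.249 to 0.458, against at most 0.0478 between mice. Fold changes used edgeR's prior count of 0.125. Of 34373 genes with at least 1 count, 17196 passed the filter. The same fit was made in the Ts65Dn mice, and the interaction of region and genotype was fitted over all 24 libraries with a term for each mouse. The number of reads limits precision for genes under 1 CPM. The fit was tested on simulated counts in which 200 of 17196 genes were changed, equally up and down. Of these, 158 were recovered, with 7 false calls. In the data 10541 genes were called, so the simulation cannot measure false calls or the scaling in these data. Alternatives were no replicate block, DESeq2 1.42.0, other scalings and filters, an adjusted p under 0.01, a test against 1.5-fold, removal of GC content and length trends, and leaving out each mouse.

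Genes were named by a rule: in each direction the 15 protein-coding and 3 other genes with the largest difference among called genes with a mean of at least 5 CPM in the higher region and no overlap between regions, up to 3 called genes per direction with the smallest adjusted p in each of 42 lists with the first 2 listed, and in each segment the 5 largest per direction with a mean of at least 1 CPM. Plk5, Foxp2, Otx1, Adcyap1, Egr1, Npas4, Arc, Btg2, App, Sod1, Dyrk1a, Adamts1 and Kcnj6 fall outside it and were chosen after their values were seen. The lists, the rule and the comparison were chosen with earlier results of these data known. Some genes are not reported here. Segment genes are those the study lists. Promoters are from RefSeq (GRCm38.p6), taking for each gene the entry nearest to its GENCODE start, and 11262 of 14399 protein-coding symbols matched.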

Additional observations from a re-analysis of the deposited data

Results flagged for a closer look

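Among 292 groups of 6 libraries checked for 146 genes, 23 held a library whose gap to the nearest other exceeded Dixon's critical value of 0.625. Chance gives about 1 in 20. All values here are CPM. The EC library of mouse 6 was the highest of its region for Egr2 (16.55, next 5.538), Fosb (20.26), Nr4a3 (61.7), Jun (82.42), Sox11 (14.97), Epha7 (96.84), Ttr (39.6, next 10.88), Kcne2 (0.7921) and Gm26644 (0.2084). The HIP library of the same mouse was the highest for Fosb (10.4) and the lowest for Mbp (2715).

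The HIP library of mouse 2 was the highest for Folr1 (32.15, next 9.604) and Adamts5 (3.092). HIP of mouse 4 was the highest for Htr5b (12.18), Prkcd (68.5) and Calb2 (76.23) and the lowest for Fezf2 (11.71), and HIP of mouse 5 was the highest for Adra1b (5.324). In EC, mouse 2 was the highest for Sod1 (120.6) and the lowest for Grik3 (84.64), mouse 5 was the highest for Bace2 (5.575) and Six3 (0.4768), and mouse 1 was the lowest for Zbtb20 (52.96).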

How the results depend on the processing

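Without the mouse as a block, 4837 genes were higher in HIP and 4660 in EC, within 1.5 times of the paired fit (5336 and 5205). Of 284 genes named by the rule 9 lost their call without the block, and 7 microglial genes were higher in EC in place of 11. DESeq2 with the block gave 4572 and 4626, removal of GC content and length trends 5101 and 5419, and an adjusted p under 0.01 gave 4296 and 4185. Leaving out 1 mouse at a time gave 4901 to 5175 genes higher in HIP and 4779 to 5047 in EC, and 1122 to 1227 and 715 to 754 of at least 2-fold. For the Mmu16 segment it gave 26 to 29 in HIP and 20 to 24 in EC, for the Mmu17 segment 10 to 13 and 10 to 11, and over all lists 217 to 226 and 370 to 398.

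Scaling by library totals lowered the Mmu16 genes higher in EC to 11, from 24, and turned the sign of Gad1 (0.06635), Gad2 (0.05092), Arc (0.06197) and Btg2 (0.03717), all not called. With no filter on low counts, 1756 genes were at least 2-fold higher in HIP in place of 1157, since more genes of low count were tested. With at least 10 counts in every sample there were 720. That filter also drops genes well expressed in HIP with few reads in EC, such as Lhx9. The interaction with no filter gave 37 genes in place of 0. A test against 1.5-fold in place of no difference left 1422 genes in HIP and 977 in EC, 11 and 0 in the Mmu16 segment, 3 and 1 in the Mmu17 segment, and 134 and 124 list members. Other counts that moved by over 1.5 times with no filter were sodium channel genes in EC (8) and striatal genes in HIP (5), and at an adjusted p under 0.01 retinoic acid genes in EC (3). With at least 10 counts in every sample 7 choroid plexus genes were left higher in HIP, and without mouse 6, 2 neuropeptide genes were higher in HIP in place of 1. Genes that were not called and lay near 0 changed sign: Htr1b (-0.03077) and Arc (0.02702) with GC content and length removed, and, leaving out 1 mouse at a time, Gad1 (-0.08246 to 0.01424), Arc (-0.2138 to 0.1742), Grm2 (-0.05091 to 0.09927) and Htr1b (-0.02915 to 0.06278). The cause was not tested.

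Genes under 1 CPM rest on few reads, as for Lhx9 and Eomes in EC, where 7 and 4 reads stand behind the lower level. The fold of such genes depends on the prior count. The share of choroid plexus, white matter or neighbouring cortex in each library was not measured.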
